A study of Homo sapiens with 6 samples.

Results

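Microtubules are the tracks on which axonal cargo travels, and 60 genes for their subunits, binding proteins and motors were followed in BE(2)-C cells after knockdown of PCIF1. The genes were chosen by name, as tubulins, tubulin cofactors, microtubule-associated proteins, plus-end proteins, stathmins, the growth cone protein GAP43, kinesins, and dynein with its partners. Of these, 59 were found among the 13885 genes of the authors' deposited table by matching identifiers to symbols, and KIF21B was not analysed here. BE(2)-C is a human neuroblastoma line with amplified MYCN. Both groups had 3 samples, the first transfected for 24 h with an siRNA against PCIF1 (siPcif1) and its control with a scrambled siRNA (siScram), and both were then kept for 4 days in 10 µM all-trans retinoic acid (ATRA), which moves these cells towards a neuronal form. The enzyme PCIF1 writes m6Am, a methyl mark on an adenosine at the first transcribed base, next to the mRNA cap. The cells were labelled wild type, 1 siRNA was used per group, and no label says whether the 3 samples of a group were separate cultures; the p-values thus reflect the spread between these samples alone, which may be technical.

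Microtubules are built from dimers of alpha and beta tubulin, each encoded by several genes whose products differ mainly in their tails, and gamma tubulin nucleates new ones. In a growing axon, lattice-binding proteins stabilise the polymer, plus-end proteins steer its growing tip and stathmins bind free dimers. Kinesins carry cargo mostly outward, towards the plus ends, and cytoplasmic dynein with its activator dynactin carries it back to the cell body. Many of these genes have a form used widely and a form enriched in neurons.

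The table gives 1 mean and 1 fold change per gene and no value per library, so each value below is the authors' estimate for siPcif1 over siScram on the log2 scale, with its SE. The direction was set by PCIF1 itself, which stood at -0.82 (SE 0.19) per the authors' deposited table and had a DESeq2 adjusted p of 0.000167, or 56.6% of the siScram level. PCIF1's sign is therefore no evidence of knockdown. The header does not state the direction and the table's name puts siScram first; were siScram the numerator, all signs below would turn. A gene passed when its DESeq2 adjusted p, taken over all 13885 genes, was under 0.05. Mean normalised counts of the members ran from 24.1 to 42166 per the authors' deposited table, with a median of 809 against 175 for all genes, and the depth of each library is unknown. Markers of sympathetic neuroblasts were measured, among them PHOX2A and HAND2 at means of 4718 and 2554 per the authors' deposited table. Of 6 fibroblast, 5 Schwann cell and 5 immune markers, 4, 2 and 1 were measured, at means of 11.4 to 80.1, 77.2 to 150 and 138 (CD14) per the authors' deposited table. S100B, at 1.21, and CD14, at 0.90, passed as higher among these markers per the authors' deposited table, and their part in the results was not tested. In RNA from whole cultures, fewer cells of a type and less RNA per cell cannot be told apart.

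Because PCIF1 acts on the first transcribed base, the start sites of the members with the largest passing changes are shown, 3 that rose (TUBA1C, KIF3A, KIF21A) and 3 that fell (NDE1, KIF1C, TUBB6). Each line gives the 20 bases before a start listed by RefSeq (GRCh38.p14) in lower case and the first transcribed base as a capital.
TUBA1C, chr12:49227906-49227926, plus strand: aatctaattaaagtagaagaA
TUBA1C, chr12:49227999-49228019, plus strand: tgctttgtgtgcttggaattA
TUBA1C, chr12:49265062-49265082, plus strand: tcggggccggccaccctttcA
KIF3A, chr5:132737546-132737566, minus strand: cgcactgggcgctctcgcccG
KIF21A, chr12:39443120-39443140, minus strand: ccgccgccacctttccattcA
NDE1, chr16:15643362-15643382, plus strand: cttttttggcgaaaacccccA
NDE1, chr16:15650225-15650245, plus strand: ccggggccgcaccgcccttcG
KIF1C, chr17:4997930-4997950, plus strand: ccgcccctcgctcccgccccA
TUBB6, chr18:12307649-12307669, plus strand: tcggatccagccctgtagtcA
TUBB6, chr18:12308221-12308241, plus strand: gacgcgcgcagccggcccgcA
An A stood at a listed start both in genes that rose and in genes that fell. RefSeq listed 91 starts for 53 members, and 54 of the starts were an A. For 9836 genes of the table it listed 14415 starts, of which 6657 were an A. Members thus had more listed starts per gene, so shares of genes with an A at any start do not compare like with like. Of the 38 members with an A at 1 or more starts (71.7%, against 54.4% of 9836 genes of the table with a listed start), 10 rose and 9 fell by DESeq2, from the authors' deposited table, with a median log2 fold change of -0.07. Of all 5348 genes with an A, 969 rose and 969 fell per the authors' deposited table, with a median of 0.02. Of the 15 members with no A, 3 rose and 1 fell, with a median of 0.09 per the authors' deposited table. Of all 4488 genes with no A, 695 rose and 834 fell, with a median of -0.02 per the authors' deposited table. Which start each cell used was not measured.

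The members changed in both directions and about as often as other genes. By DESeq2, 23 of 59 members passed, per the authors' deposited table (39.0%, against 34.0% of all genes), 13 as higher (22.0%, against 16.3%) and 10 as lower (16.9%, against 17.7%). The median log2 fold change was -0.02 for the members and 0.01 for all genes per the authors' deposited table. Changes were mostly modest, and 2 of 59 members, NDE1 and TUBA1C, passed 1 on the log2 scale, beside 731 of all 13885 genes. More plus-end proteins and kinesin heavy chains rose than fell, the changed beta tubulins all fell, and 0 of the stathmins passed. The counts of each role are to be read beside the shares of all genes, and no role was tested as a set. With a trend across all genes with GC content, transcript length and mean count removed from the authors' values, 14 members passed (23.7%, against 25.3% of all genes), 9 as higher (15.3%, against 12.4% of all genes) and 5 as lower (8.47%, against 12.9%), and 11 of these had passed in the same direction before.

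Under other call rules more members than the share of all genes passed at looser and stricter p thresholds, and about the same share with a minimum change or mean. At an adjusted p under 0.01 it was 28.8% of members (22.9% of all genes; 10.7% higher and 12.1% lower), and under 0.1 it was 52.5% (41.2%; 20.1% and 21.1%), from the authors' deposited table. An absolute change of at least 0.5 left 27.1% of members (26.4%; 13.1% and 13.4%), and a mean of at least 100 gave 42.9% (41.7%; 19.5% and 22.2%). Centred on the median of all genes, 39.0% of members passed (33.9%; 15.9% and 17.9%). Tested against a change of 0.3, 4 members were higher (6.78%, against 3.87%) and 2 lower (3.39%, against 5.21%), or 10.2% against 9.07% in all. The statistics were also scaled to their own robust SD, a rule chosen after seeing the data. Then 0 of 59 members and 0.972% of all genes passed (0.151% higher and 0.821% lower). An unadjusted DESeq2 p under 0.05 was held by 32 of 59 members and by 5998 of all 13885 genes, per the authors' deposited table.

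**Figure D1:**
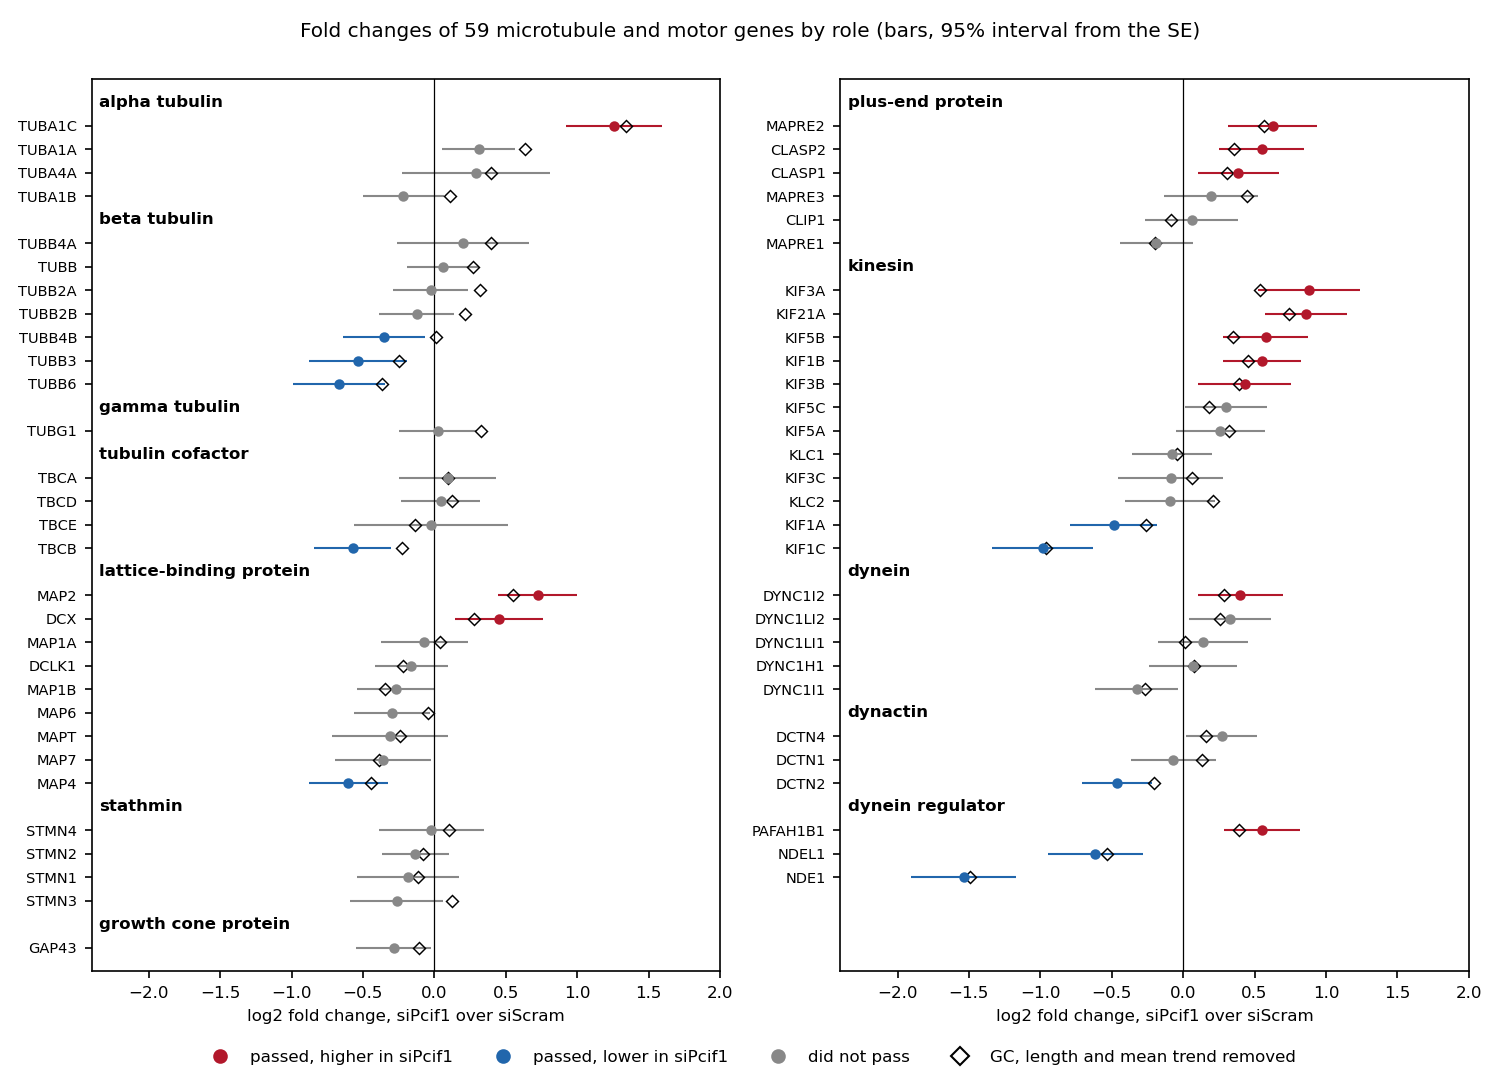
Log2 fold change of each measured member, siPcif1 over siScram, by role, with 95% intervals from the SE. Red and blue points passed an adjusted p of 0.05, grey points did not, and open diamonds give the value once the trend across GC content, length and mean is removed. NDE1 (-1.54) and TUBA1C (1.26) lie farthest out.

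Among the alpha tubulins, TUBA1C rose and the 2 abundant isotypes did not pass. TUBA1C (ENSG00000167553.15; chromosome 12, 49188736 to 49274603 in GRCh38) was at 1.26 (SE 0.17) per the authors' deposited table, a 2.39-fold rise (95% interval 1.89 to 3.02) with a DESeq2 adjusted p of 1.89e-11. TUBA1A, the main alpha tubulin of young neurons, was at 0.31 (SE 0.13, DESeq2 adjusted p = 0.0517) per the authors' deposited table, and passed at 0.64 (adjusted p = 2.09e-05 from the DESeq2 values) with the trend removed. TUBA1B, used in most cell types, was at -0.22 (SE 0.14) and TUBA4A at 0.29 (SE 0.26) per the authors' deposited table. The coding sequences of TUBA1A, TUBA1B and TUBA1C are 95.9 to 97.2% identical, and 41.1%, 62.7% and 25.1% of the 50-base windows of their main transcripts also stand in a transcript of another gene. Their values are uncertain to that extent, since how reads matching several places were counted was not given in the sources used here. TUBA1C also overlaps TUBA1A on the opposite strand, and whether counting used strand is likewise not given.

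Of the 7 beta tubulins 3 fell and 0 rose, where 17.7% of all genes fell and 16.3% rose. The 3 that fell have a GC content of 59.4 to 62.6%. Of all genes at 55% GC or more, 29.1% fell and 4.81% rose. TUBB6 (ENSG00000176014.12; chromosome 18, 12307669 to 12344320) was at -0.67 (SE 0.16) per the authors' deposited table, or 63.0% of the siScram level (50.4 to 78.7%), with a DESeq2 adjusted p of 0.000398. TUBB4B, a broadly used isotype, was at -0.35 (SE 0.15) per the authors' deposited table and passed narrowly (DESeq2 adjusted p = 0.0487). TUBB3, the isotype used as a marker of neurons, was at -0.53 (SE 0.18, DESeq2 adjusted p = 0.0104) per the authors' deposited table. Of its 50-base windows 89.4% also stand in AC092143.1, an annotated gene that overlaps it on the same strand, so its value, at a mean of 139, is uncertain. The other isotypes TUBB, TUBB2A, TUBB2B and TUBB4A lay between -0.12 and 0.20 per the authors' deposited table, short of the threshold. The coding sequences of TUBB2A and TUBB2B are 98.2% identical, with 65.5% and 52.2% of their windows shared. With the trend removed, 0 of the 7 passed (TUBB6 at -0.37, TUBB3 at -0.25 and TUBB4B at 0.010, with adjusted p-values of 0.0828, 0.317 and 0.969 from the DESeq2 values), and the median of the family was 0.21 against -0.12 as deposited. Gamma tubulin TUBG1 was at 0.02 (SE 0.14) per the authors' deposited table.

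Per kilobase of transcript, TUBA1C was a small part of the alpha tubulin signal. Levels in each group were computed from the mean and the fold change of the authors' deposited table, and so carry no SD. They rest on the direction read from PCIF1. With the other direction each gene's shares would swap between the groups and the sums would invert. Counts were divided by full transcript length, though 62.7% of TUBA1B, 52.2% of TUBB2B and 9.89% of TUBB4B windows also stand in another gene. How such reads were counted is not given, so shares, ranks and sums may be distorted by them. TUBA1A made up 67.3% of the alpha tubulin count per kilobase with siPcif1 and 58.97% with siScram, and TUBA1B 32.4% with siPcif1 and 40.9% with siScram. TUBA1C made up 0.278% with siPcif1 and 0.126% with siScram, so its 2.39-fold rise moved the family's sum little. The summed alpha tubulin with siPcif1 was 109% of that with siScram, and the summed beta tubulin 89.4%, with no error that could be given for either. By this measure TUBB2B had the largest share of the beta tubulins, at 38.4% of the family with siPcif1 and 37.4% with siScram. TUBB6 made up 4.56% with siPcif1 and 6.47% with siScram.

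**Figure D2:**
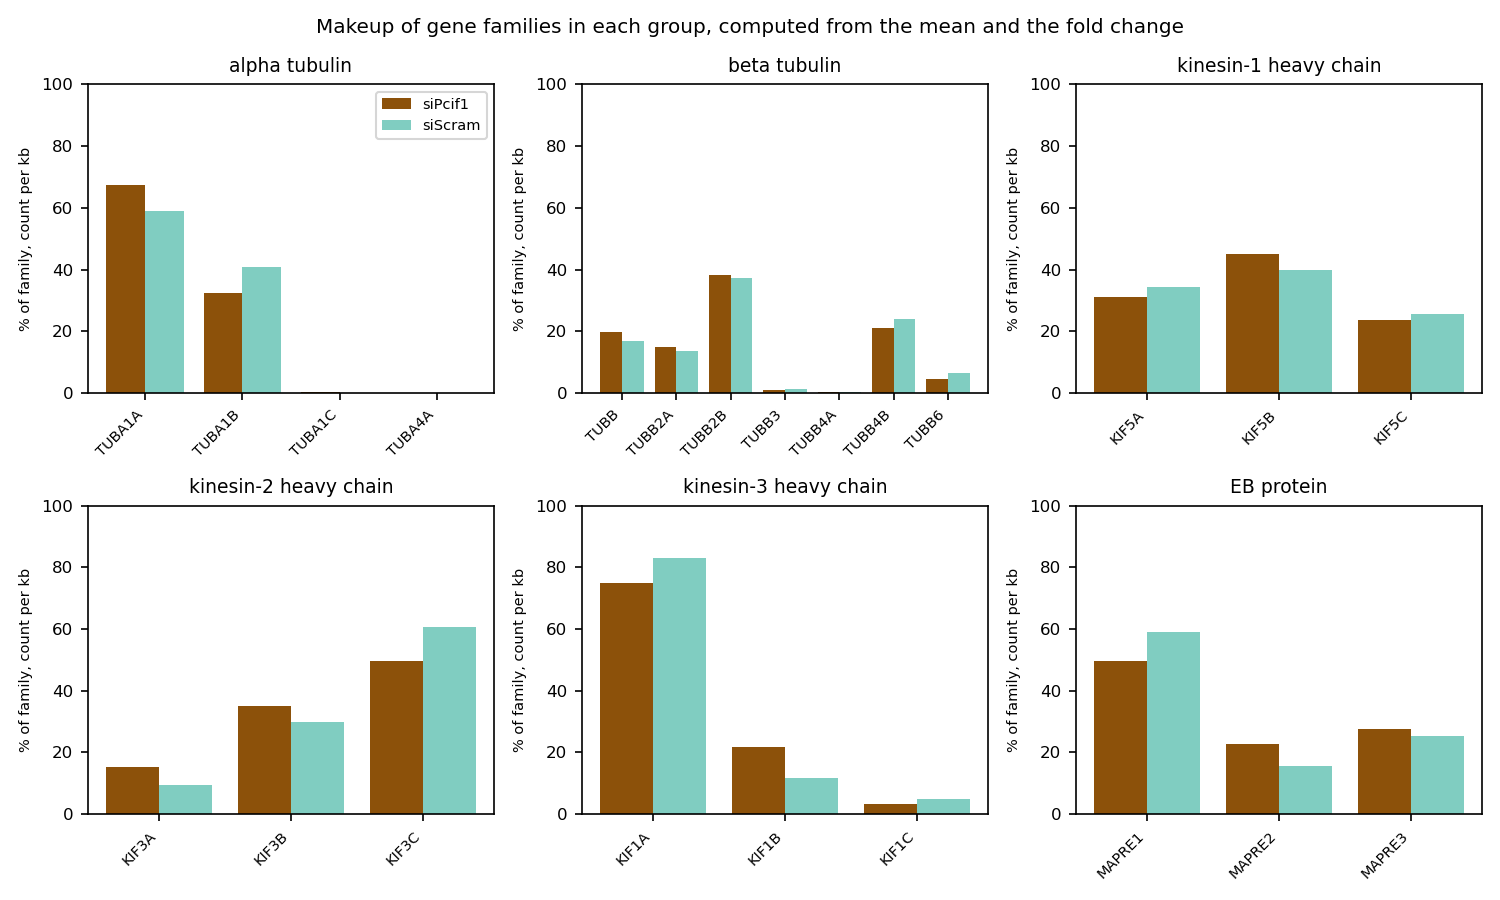
Share of each gene in the summed count per kilobase of its family, in percent, with siPcif1 (left bars) and siScram (right bars), computed from the authors' mean and fold change. TUBA1A and TUBA1B make up nearly all of the alpha tubulin signal, and KIF1A most of the kinesin-3 heavy chain signal (74.9% with siPcif1 and 83.1% with siScram). Sequence shared between genes was not accounted for.

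Of the 4 cofactors that fold and take apart tubulin dimers, TBCB, which handles alpha tubulin, fell. It was at -0.57 (SE 0.14) per the authors' deposited table and had a DESeq2 adjusted p of 0.000315, and at -0.22 (adjusted p = 0.243 from the DESeq2 values) with the trend removed. TBCA, TBCD and TBCE lay between -0.02 and 0.09 per the authors' deposited table. TBCE is carried by 2 overlapping identifiers, shares 97.6% of its windows with the other entry, and its mean of 24.1 is the lowest of all members.

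Lattice-binding proteins moved in both directions, with 2 of 9 higher and 1 lower, where 16.3% of all genes were higher and 17.7% lower. MAP2, which binds microtubules of dendrites (ENSG00000078018.19; chromosome 2, 209424058 to 209734118), was at 0.72 (SE 0.14) per the authors' deposited table, a 1.65-fold rise (1.36 to 2.00) with a DESeq2 adjusted p of 3.90e-06. Doublecortin, DCX, a protein of migrating young neurons, was at 0.45 (SE 0.16, DESeq2 adjusted p = 0.0159) per the authors' deposited table, and at 0.28 (adjusted p = 0.198 from the DESeq2 values) with the trend removed. MAP4, the main lattice-binding protein of non-neuronal cells, was at -0.60 (SE 0.14) per the authors' deposited table and had a DESeq2 adjusted p of 0.000167. The other 6 had negative values that did not pass. MAP1B, an early axonal protein and the most abundant of them at a mean of 9826, was at -0.27 (SE 0.14) per the authors' deposited table. MAPT, which encodes tau, was at -0.31 (SE 0.21), MAP6 at -0.30 (SE 0.14) and MAP7, a kinesin-1 recruiter, at -0.36 (SE 0.17) per the authors' deposited table. MAP1A was at -0.07 and DCLK1, a kinase related to doublecortin, at -0.16 per the authors' deposited table. With the trend removed MAP2 (0.55) and MAP4 (-0.44) still passed, and MAP1B (-0.35) did as well, at an adjusted p of 0.0451 from the DESeq2 values.

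The stathmins and GAP43, which are abundant in growing axons, had small negative values. STMN1, STMN2, STMN3 and STMN4 were at -0.18 (SE 0.18), -0.13 (SE 0.12), -0.26 (SE 0.17) and -0.02 (SE 0.19) per the authors' deposited table, and 0 of 4 passed by DESeq2, also at an unadjusted p of 0.05. STMN2, the neuronal stathmin also called SCG10, was the most abundant of the 4, with 54.9% of their count per kilobase with siPcif1 and 53.7% with siScram. Its 95% interval per the authors' deposited table ran from -0.37 to 0.10. GAP43, a membrane protein of growth cones, was at -0.28 (SE 0.13) per the authors' deposited table and had a DESeq2 adjusted p of 0.0877.

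Plus-end proteins rose or did not pass, with 3 of 6 higher and 0 lower by DESeq2, where 16.3% of all genes were higher and 17.7% lower. MAPRE2, a member of the EB family that marks growing plus ends, was at 0.63 (SE 0.16) per the authors' deposited table and had a DESeq2 adjusted p of 0.000564. CLASP2 and CLASP1, which help shrinking microtubules regrow, were at 0.55 (SE 0.15) and 0.39 (SE 0.14) per the authors' deposited table, with DESeq2 adjusted p-values of 0.00187 and 0.0260. MAPRE1, the EB1 gene, was at -0.19 (SE 0.13), MAPRE3 at 0.20 (SE 0.17) and CLIP1 at 0.06 (SE 0.17) per the authors' deposited table. Of the EB family's count per kilobase MAPRE2 made up 22.9% with siPcif1 and 15.6% with siScram, and MAPRE1 49.5% with siPcif1 and 59.1% with siScram. With the trend removed MAPRE2 (0.57) and MAPRE3 (0.45) passed, and CLASP2 (0.36) and CLASP1 (0.31) had adjusted p-values of 0.0692 and 0.102 from the DESeq2 values.

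Of 10 kinesin heavy chains 5 rose and 2 fell, where 16.3% of all genes rose and 17.7% fell. KIF3A (ENSG00000131437.15; chromosome 5, 132692628 to 132737638), a motor subunit of kinesin-2, was at 0.88 (SE 0.18) per the authors' deposited table, a 1.84-fold rise with a DESeq2 adjusted p of 1.90e-05. Its partner KIF3B was at 0.43 (SE 0.17, DESeq2 adjusted p = 0.0309) and the neuronal KIF3C at -0.09 (SE 0.19) per the authors' deposited table. KIF21A (ENSG00000139116.18; chromosome 12, 39293228 to 39443390), a kinesin that restrains microtubule growth, was at 0.86 (SE 0.15) per the authors' deposited table, a 1.82-fold rise with a DESeq2 adjusted p of 1.04e-07. Among the kinesin-1 heavy chains, the broadly used KIF5B was at 0.58 (SE 0.15, DESeq2 adjusted p = 0.00114), and the neuronal KIF5A and KIF5C were at 0.26 (SE 0.16) and 0.30 (SE 0.15) per the authors' deposited table. The light chains KLC1 and KLC2, which bind cargo, were at -0.08 and -0.09 per the authors' deposited table, short of the threshold. KLC1 shares 60.6% of its windows with an overlapping gene, AL139300.1.

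The kinesin-3 genes of the KIF1 family passed in different directions. KIF1B was at 0.55 (SE 0.14) per the authors' deposited table and had a DESeq2 adjusted p of 0.000562. KIF1A, which carries synaptic vesicle precursors along axons, was at -0.49 (SE 0.16) per the authors' deposited table and had a DESeq2 adjusted p of 0.00828. KIF1C (ENSG00000129250.11; chromosome 17, 4997948 to 5028401) was at -0.98 (SE 0.18) per the authors' deposited table, or 50.5% of the siScram level (39.5 to 64.7%), with a DESeq2 adjusted p of 1.10e-06. By count per kilobase KIF1A was the main member, and KIF1B made up 21.9% of the family with siPcif1 and 11.8% with siScram. With the trend removed KIF21A (0.74), KIF3A (0.54), KIF1B (0.45) and KIF1C (-0.96) still passed, whereas KIF5B (0.35), KIF3B (0.39) and KIF1A (-0.26) had adjusted p-values of 0.0800, 0.0660 and 0.223 from the DESeq2 values.

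The 3′ UTR of KIF1C holds a word that an earlier scan of these same fold changes had singled out, so the match is no independent evidence. The word TCAAGT with an A on both sides was found in the 3′ UTR of 1 member and of 2.38% of the genes with a 3′ UTR. The site and its surroundings in the main transcript, from GENCODE 29, are shown with the word in capitals.
KIF1C 3′ UTR, plus strand: ccctctaggccATCAAGTAttggctgggtg
Over all genes with this 8-base word the median log2 fold change per the authors' deposited table was 0.07, and -0.19 with the trend removed; for genes with no TCAAGT the medians were -0.05 and 0.04. Of 8 members whose TCAAGT has an A on 1 side, 3 rose (CLASP1, CLASP2 and DCX) and 0 fell by DESeq2, from the authors' deposited table, and of 10 with neither A, TUBA1C among them, 5 rose and 0 fell. The medians over all genes of these classes were 0.11 and 0.10 per the authors' deposited table, and -0.04 and 0.02 with the trend removed. Of the 40 members with no TCAAGT in the 3′ UTR, NDE1 among them, 5 rose and 9 fell. Of all genes, 16.3% rose and 17.7% fell by DESeq2, per the authors' deposited table. The shares of all genes within each class were not counted, so these member counts are no result about the word. Only this strand was searched, and a match is not evidence of a working site.

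Dynein and dynactin subunits mostly had small values, with 1 higher and 1 lower of 8. Of 5 dynein subunits, the intermediate chain DYNC1I2 rose, at 0.40 (SE 0.15, DESeq2 adjusted p = 0.0293) per the authors' deposited table, and 32.6% of its windows are shared with a pseudogene. The other intermediate chain DYNC1I1, enriched in neurons, was at -0.33 (SE 0.15) per the authors' deposited table and had a DESeq2 adjusted p of 0.0725. The heavy chain DYNC1H1, which holds the motor, was at 0.07 (SE 0.16), and the light intermediate chains DYNC1LI1 and DYNC1LI2 at 0.14 (SE 0.16) and 0.33 (SE 0.15) per the authors' deposited table. Of 3 dynactin subunits DCTN2, or dynamitin, fell, at -0.46 (SE 0.13, DESeq2 adjusted p = 0.00141) per the authors' deposited table. DCTN1, the large subunit that touches the microtubule, was at -0.07 (SE 0.15) and DCTN4 at 0.27 (SE 0.13) per the authors' deposited table. With the trend removed DYNC1I2 (0.29) and DCTN2 (-0.20) had adjusted p-values of 0.163 and 0.244 from the DESeq2 values.

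The 3 regulators that act together on dynein all passed, in opposite directions. NDE1 (ENSG00000072864.14; chromosome 16, 15643267 to 15726353) showed the largest change of any member, at -1.54 (SE 0.19) per the authors' deposited table, or 34.5% of the siScram level (26.7 to 44.4%), with a DESeq2 adjusted p of 1.87e-14. Its relative NDEL1 was at -0.61 (SE 0.17, DESeq2 adjusted p = 0.00194) per the authors' deposited table. Both proteins tether LIS1 to dynein. PAFAH1B1, which encodes LIS1 and is mutated in lissencephaly, was at 0.55 (SE 0.13) per the authors' deposited table and had a DESeq2 adjusted p of 0.000326. All 3 still passed with the trend removed, at -1.49, -0.53 and 0.39. NDE1 overlaps MYH11 and NDEL1 overlaps MYH10 on the opposite strand; MYH10 was at 0.48 per the authors' deposited table.

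Some related genes were set side by side. Differences of log2 fold changes from the authors' deposited table were given 95% intervals that take the errors of the 2 genes as independent; the 11 pairs were chosen with the values known, so that most intervals lie above 0 is no finding. PAFAH1B1 was above NDE1 by 2.09 (1.64 to 2.54), KIF1B above KIF1C by 1.54 (1.09 to 1.99) and above KIF1A by 1.04 (0.63 to 1.45). MAP2 was above MAP4 by 1.32 (0.94 to 1.71), MAPRE2 above MAPRE1 by 0.81 (0.41 to 1.21), TUBA1C above TUBA1A by 0.95 (0.52 to 1.37) and DYNC1I2 above DYNC1I1 by 0.73 (0.31 to 1.14). PAFAH1B1 was above NDEL1 by 1.17 (0.74 to 1.59) and DCTN4 above DCTN2 by 0.73 (0.38 to 1.08). The interval for KIF5B over KIF5A included 0, with a difference of 0.32 (-0.12 to 0.75). KIF3A was above KIF3C by 0.97 (0.45 to 1.48), but by 0.47 (-0.04 to 0.98) with the trend removed; of the other 9 pairs with an interval above 0, all 9 kept one above 0.

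Fold changes went down with the GC content of the transcript, among members as among all genes. Spearman's rho between fold change and GC content was -0.57 over the 59 members and -0.42 over 13877 genes, as a description across genes of the same libraries. Of 19 members with a GC content under 45%, 9 rose and 0 fell by DESeq2, from the authors' deposited table, with a median log2 fold change of 0.33 against 0.26 for all 4924 genes in that range, of which 31.1% rose and 7.41% fell. Of 19 members at 55% or more, 0 rose and 6 fell, with a median of -0.12 against -0.20 for all 4238 such genes per the authors' deposited table, of which 4.81% rose and 29.1% fell. Between these limits 4 of 21 members rose and 4 fell, against 11.1% and 18.1% of all genes. The median GC content was 44.3% for plus-end proteins, 48.1% for kinesins and 59.4% for beta tubulins, against 48.8% for all genes. Their median log2 fold changes were 0.29, 0.28 and -0.12 per the authors' deposited table. Dynein subunits were at 43.6% with a median of 0.14, stathmins at 47.0% with -0.16 and lattice-binding proteins at 48.3% with -0.27. Cofactors were at 49.8% with 0.01, dynein regulators at 50.8% with -0.61, alpha tubulins at 52.1% with 0.30 and dynactin at 52.8% with -0.07. What sets the trend was not tested.

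**Figure D3:**
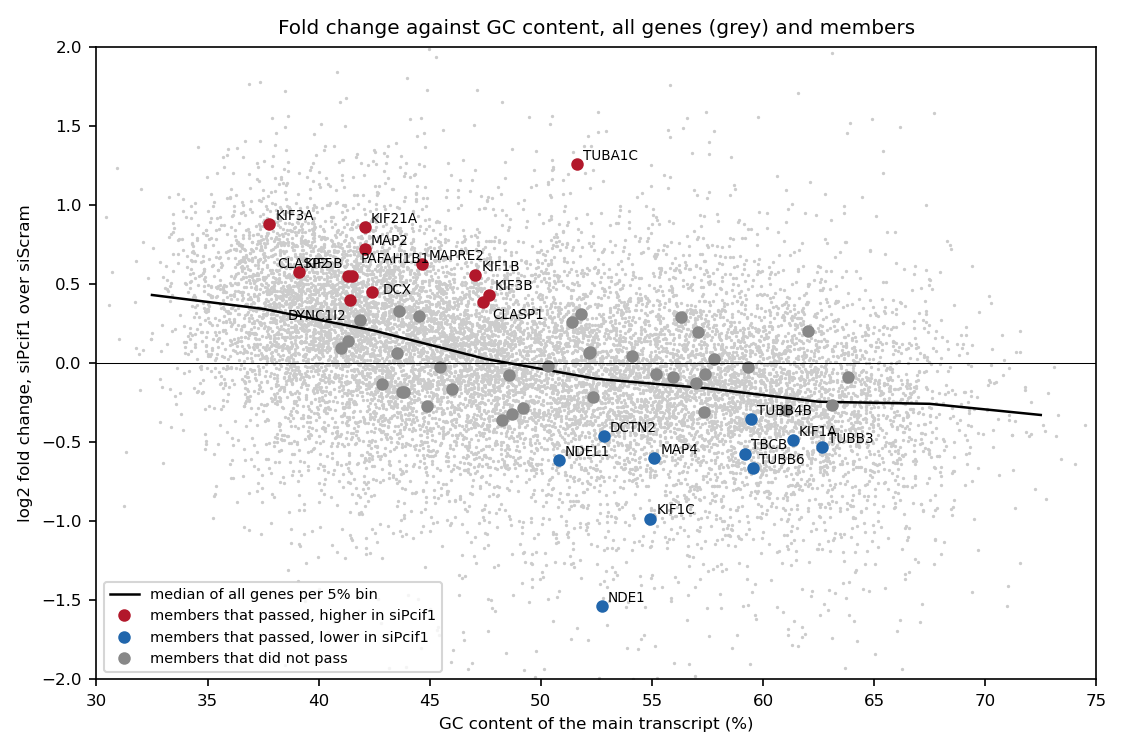
Log2 fold change, siPcif1 over siScram, against the GC content of the main transcript for all genes (grey; those beyond 2 on the log2 scale or outside 30 to 75% GC are not drawn) and for members (coloured). The black line is the median of all genes per 5% bin; members that rose lie at 47.6% (KIF3B) or less apart from TUBA1C (51.6%), and those that fell lie at 50.8% (NDEL1) or more.

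Other genes of the same machinery, in 10 lists, were called about as often, with 48 of 129 measured passing (37.2%, against 34.0% of all genes), 21 higher and 27 lower per the authors' deposited table. Of all genes, 16.3% were higher and 17.7% lower by the same rule, and 12.4% and 12.9% with the trend removed. The counts of each list are to be read beside these shares, and no list was tested as a set. Of 13 kinesins of mitosis 8 fell and 0 rose by DESeq2, with a median of -0.60 per the authors' deposited table. KIF2C, which takes microtubule ends apart, and KIF20A, a motor of cytokinesis, were at -1.94 (SE 0.14) and -1.83 (SE 0.17), and KIF22 at -0.76 (SE 0.15) per the authors' deposited table. With the trend removed 8 of the list were lower, but KIF18B (-0.26) was no longer among them and KIF18A (-0.84) was, both named after their values were seen. Of 9 genes listed as other transport kinesins, 2 rose and 3 fell by DESeq2, per the authors' deposited table. The 2 that rose were KIF26B at 0.59 and KIF2A, named after its value was seen, at 0.46 per the authors' deposited table. KLC4 at -0.59 and KIFC3 at -0.47 per the authors' deposited table were among those that fell. With the trend removed KIF26B (0.74) and KIF2A (0.43) passed as higher and 0 as lower. Whether each gene of this list carries cargo was not tested, so these counts are no result about cargo motors. Of 14 other dynein and dynactin subunits 3 rose and 1 fell, led by the actin-capping subunits CAPZA2 at 0.62 and CAPZA1 at 0.50 and by DCTN6 at 0.58 per the authors' deposited table; with the trend removed 2 were higher and 0 lower, and DCTN6 (0.41) did not pass. Of 18 motor adaptors 2 rose and 3 fell, with the kinesin scaffolds MAPK8IP2 and MAPK8IP1 at -0.57 and -0.48 and SPAG9 at 0.45 per the authors' deposited table; with the trend removed 4 passed as higher and 1 as lower.

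Of 17 genes listed as tubulin-modifying enzymes 6 fell and 3 rose by DESeq2, where 17.7% of all genes fell and 16.3% rose. Whether each gene of this list modifies tubulin was not tested. The deacetylases SIRT2 and HDAC6 were at -0.91 (SE 0.15) and -0.78 (SE 0.16), and TTLL12 at 0.71 (SE 0.16) per the authors' deposited table, and all 3 passed with the trend removed, when 4 of the list were lower and 2 higher. The severing enzymes KATNAL1 and FIGNL1 were at 0.84 (SE 0.16) and 0.83 (SE 0.19) and FIGN, which did not pass, at 0.49 per the authors' deposited table; 2 of 6 rose and 0 fell, also with the trend removed. Of 17 chaperones that fold tubulin 4 rose and 1 fell, with the chaperonin subunits CCT8 and CCT6A at 0.72 and 0.52 and the cofactor TBCC at -0.67 per the authors' deposited table; with the trend removed 4 were higher and 2 lower. Of 10 genes of the gamma tubulin ring complex TUBGCP5 rose, at 0.65, and MZT2B and MZT2A fell, at -0.59 and -0.48, per the authors' deposited table; with the trend removed the last 2 were at -0.10 and 0.0070, and 1 of the list was higher and 1 lower. Of 22 other microtubule and growth cone proteins 4 rose and 3 fell, with MTUS1 at 0.74, the minus-end protein CAMSAP2 at 0.64 and MARCKS at -0.53 per the authors' deposited table; with the trend removed 2 were higher and 2 lower. Of the 3 other tubulins measured 0 passed, with TUBE1, TUBD1 and TUBG2 at -0.28, 0.36 and 0.07 per the authors' deposited table; with the trend removed TUBE1 passed as lower, at -0.49 (adjusted p = 0.0299 from the DESeq2 values).

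**Figure D4:**
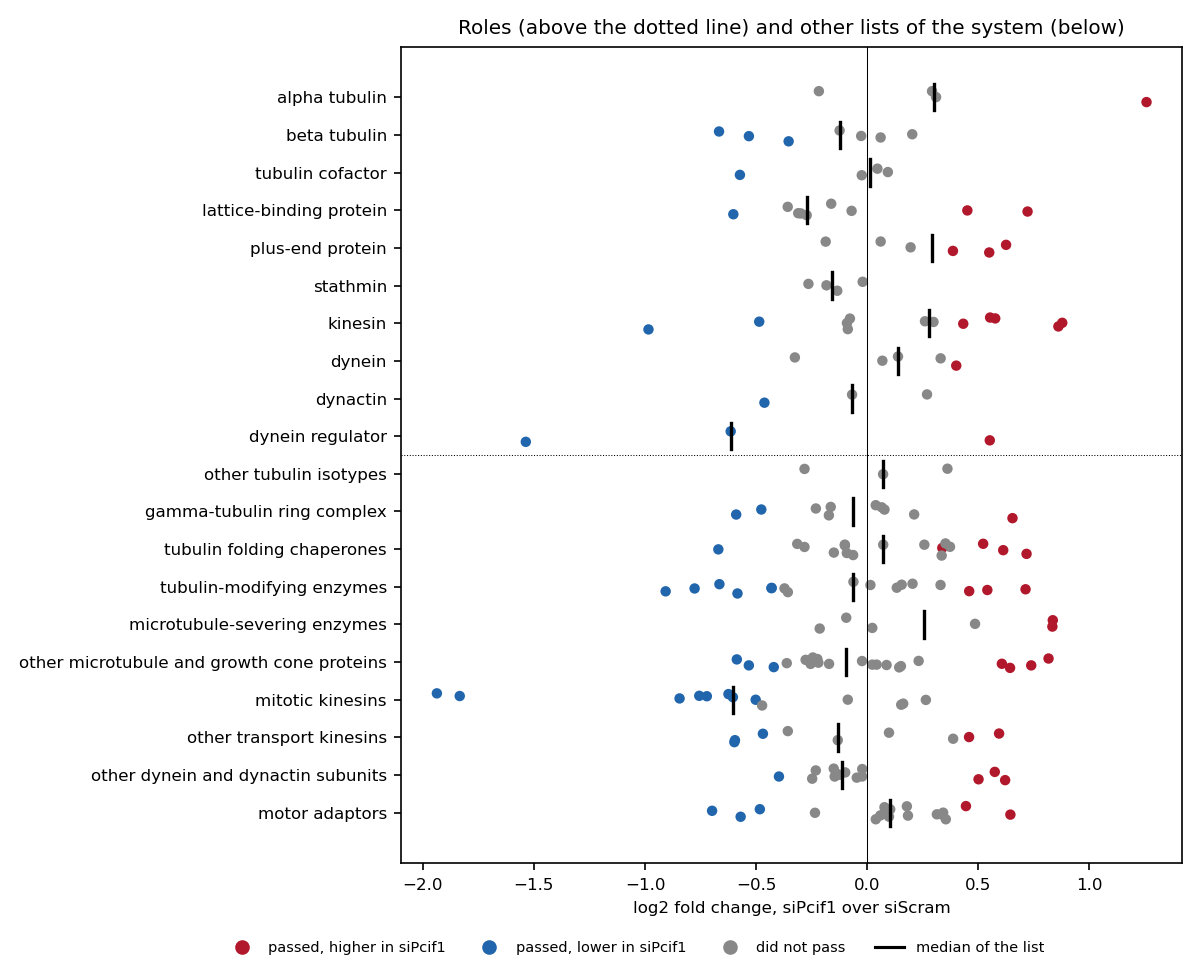
Log2 fold changes, siPcif1 over siScram, of members by role (above the dotted line) and of other genes of the microtubule system by list (below it), 1 point per gene, with the median of each list as a black line and colours for the genes that passed. The mitotic kinesins have the lowest median of the lists below the line (-0.60), and the plus-end proteins lie mostly above 0.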

How the data were processed

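Poly(A)-selected, stranded libraries were made from DNase-treated RNA, per the labels' protocols. Tools listed, with no roles or settings, were DESeq2, HTSeq, STAR 2.7.10a, cutadapt 3.7, deepTools and bcl2fastq 2.20, on build hg38, per the submitters' processing notes. The deposited table holds 6 columns: the mean normalised count of a gene, a signal the authors computed; its log2 fold change with SE, both log2 values from the authors; a Wald statistic, the score the authors deposited; and the p-value and adjusted p-value the authors deposited. Recomputed Benjamini-Hochberg values matched the latter to within 1.44e-15. No values per library were used, so no count model was run and precision rests on the SE (0.12 to 0.30). The largest SE of 0.295 fits fold changes shrunken under a normal prior, which the header does not state; printed changes may be too small.

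Symbols, positions, transcripts and GC content came from GENCODE 29 (13877 of 13885 identifiers matched) and start sites from RefSeq. The main transcript was ranked by APPRIS, basic tag, support level and length. All measured members were named, with PCIF1 and up to 3 genes of each further list by smallest adjusted p. KIF18A, KIF18B and KIF2A were named besides these. The members and lists were chosen with earlier results of these data known. The trend was a least-squares fit with linear and squared terms for GC content, log length and log mean; adjusted p-values then came from the Wald statistic less the fitted value over the SE. Other settings were further thresholds, a minimum change, a test against a change of 0.3, centring, a minimum mean of 100 and, added after seeing the data, statistics scaled to their robust SD. The call rules, the trend removal and the estimate without shrinkage were tested on simulated data, and the other steps were not. Computing used Biopython 1.88, matplotlib 3.10.9, pandas 2.3.3, scipy 1.17.1 and numpy 2.4.6 under Python 3.11.15. Some marker genes are not reported here.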

Additional observations from a re-analysis of the deposited data

How the results depend on the processing

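The 13 members higher and 10 lower were counts of 9 to 17 and 7 to 14 with adjusted p thresholds of 0.01 or 0.1, an absolute log2 change of at least 0.5, centring or a mean of at least 100. Tested against an absolute log2 change of 0.3, 4 members were higher and 2 lower. Once the trend (GC content, length, mean) was removed, 5 were lower, and the medians were 0.52 for alpha tubulins (0.30 as deposited), 0.21 for beta tubulins (-0.12) and 0.13 for dynactin (-0.07). That setting turned the sign of TUBA1B (0.11), TUBB2A (0.32), TUBB2B (0.21), TUBB4B (0.010), MAP1A (0.039), CLIP1 (-0.082), STMN3 (0.12), STMN4 (0.10), KIF3C (0.064), KLC2 (0.21) and DCTN1 (0.13), of which TUBB4B alone had passed as deposited; the cause was not tested. With the DESeq2 statistics scaled to their robust SD of 2.44, a setting chosen after seeing the data, 0 members passed as higher and 0 as lower, and 135 of all genes passed; NDE1 came nearest at an adjusted p of 0.0667. At an unadjusted DESeq2 p under 0.05, 32 of 59 members passed, beside 5998 of all 13885 genes. Estimated without shrinkage, no role median moved by more than its members' median SE, and NDE1 was at -1.73 and TUBA1C at 1.39. No paired analysis was possible because the table used here holds no values per sample, and leaving out each replicate was not run for the same reason.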

Other observations

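A gene on the opposite strand is annotated over 39 of the 59 members, and for 15 of them such a gene was measured. AFG3L2, opposite TUBB6, was at 0.41 and POLR2I, opposite TBCB, at -0.40 per the authors' deposited table. MBD6, opposite DCTN2, was at -0.43 (DESeq2 adjusted p = 0.0618) and PSMG4, opposite TUBB2B, at 0.54 per the authors' deposited table. The other identifier of TBCE was at 0.42 (SE 0.28) with a mean of 18.4 per the authors' deposited table. The members that had an adjusted p between 0.05 and 0.1 numbered 8. Under 0.05 were 39.0% of members and 34.0% of all genes, and under 0.1 were 52.5% and 41.2%. Of the 23 members that passed, 18 share less than 5% of their 50-base windows with another gene, as do 42 of all 59 members.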
